A study of Homo sapiens with 8 samples.

Results

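The guanine nucleotide exchange factors of the ARF family were examined in MOLM-13 cells, an established line of human acute myeloid leukemia, with and without knockdown of the splicing factor PTBP1. The group held 9 genes, taken by name from a table of 62639 annotated genes: the cytohesins CYTH1, CYTH2, CYTH3 and CYTH4, the factors IQSEC1 and IQSEC2, and the large factors ARFGEF1, ARFGEF2 and GBF1. The set was chosen by the gene counts of CYTH3 and IQSEC2, which were higher in the knockdown libraries, so the gene levels of these 2 are described and not tested. Each of the 9 genes had at least 1 count and 7 passed the filter on low counts, CYTH1 and IQSEC1 being left out.

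All cells carried a lentiviral shRNA under a doxycycline-inducible promoter together with the ΔLNGFR and mCherry markers, and all were given doxycycline for 9 days. In 4 libraries the shRNA was directed at PTBP1 (shPTBP1), and in 4 it was a scrambled control (shSCR, shControl in the labels). The replicates are labelled as biological, but nothing states whether they came from separate transductions, and the single line cannot speak for other leukemias. Long-read cDNA libraries were sequenced on the nanopore platform, and the totals ran from 1528449 to 1613342 counts per library. PTBP1 averaged 47.5 ± 7.81 CPM (counts per 1000000 counts of the library, mean ± SD, n = 4) with shSCR and 9.88 ± 3.55 CPM with shPTBP1, and its paralog PTBP2, which PTBP1 is known to repress, averaged 1.45 ± 0.814 and 124.4 ± 5.44 CPM. Each of the 8 myeloid leukemia markers had at least 1 count. Their sum was 426–468 CPM with shSCR and 462–606 CPM with shPTBP1. LYZ was the largest part of it, at 273.6 ± 25.4 CPM with shSCR and 345.0 ± 60.7 CPM with shPTBP1. SPI1 had 1 count in the 8 libraries. FLT3 and HOXA9 had lower means with shPTBP1, 2.93 and 56.2 CPM against 5.56 and 59.7 CPM. In any library, T cell markers summed to at most 0.667 CPM and B cell markers to at most 2.00 CPM, and CD3D, CD3E, CD3G and MS4A1 were at 0. Neuronal markers, listed because PTBP1 represses neuronal exons, summed to 4.30–18.01 CPM with shSCR and 8.56–16.5 CPM with shPTBP1, with SYT1, RBFOX3 and GRIN1 at 0. Within that list SNAP25 averaged 5.86 ± 4.62 CPM with shSCR and 11.8 ± 3.01 CPM with shPTBP1 (adjusted p = 0.197 in edgeR), and TUBB3, which was not tested, 3.55 ± 1.45 and 0.165 ± 0.33 CPM. The 4 genes of fibroblasts and epithelium summed to 13.4–19.05 and 10.8–17.2 CPM. The part of these markers in the results was not tested.

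ARF proteins are small GTPases that recruit vesicle coats and lipid-modifying enzymes to membranes while they hold GTP. They are loaded by exchange factors that share a catalytic Sec7 domain. GBF1 works at the early Golgi, where ARF1 recruits the COPI coat, and ARFGEF1 and ARFGEF2 (BIG1 and BIG2) at the trans-Golgi and recycling endosomes. Cytohesins carry a pleckstrin homology domain that binds phosphoinositides at the plasma membrane, and the IQSEC proteins activate ARF6 there, IQSEC2 being best known from excitatory synapses. PTBP1 binds pyrimidine-rich RNA and commonly represses the exon beside it.

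Levels are CPM after normalisation of the library sizes by the trimmed mean of M-values (TMM), and differences are log2 fold changes (log2 differences) of shPTBP1 against shSCR from edgeR. Over all 7597 genes tested, 5.54% passed an adjusted p of 0.05 (Benjamini-Hochberg) and are termed called, 3.19% lower and 2.36% higher with shPTBP1, and in 12.7% the libraries of the 2 groups did not overlap. In bulk RNA, fewer cells that express a gene and less RNA per cell cannot be told apart.

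IQSEC2 (ENSG00000124313, chrX:53225828-53321350, minus strand, all positions in hg38) was counted 20, 17, 12 and 19 times in the shPTBP1 libraries 1 to 4, and 4, 4, 1 and 1 times in the shSCR libraries 1 to 4. Every shPTBP1 library was above every shSCR library. The level was 10.99 ± 2.14 CPM with shPTBP1 and 1.58 ± 1.07 CPM with shSCR (n = 4 each), a log2 fold change of 2.72 (SE 0.43). The ratio of the summed counts was 6.89, with a 95% interval of 3.53–15.01 that covers counting error only.

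Nearly all of these counts lay on short transcripts that stop far upstream of the exons for the Sec7 domain. Of the 78 IQSEC2 counts, 75 fell on 3 annotated transcripts that end at an internal terminal exon. IQSEC2-209, of 3 exons and 922 bases, held 59 counts with shPTBP1 and 8 with shSCR. IQSEC2-222 held 5 and 2, and IQSEC2-206 held 1 and 0. Their annotated coding lengths are 219, 150 and 336 bases. The other 3 counts lay on IQSEC2-201, which has 14 exons and 2847 coding bases, in shPTBP1 libraries 1, 2 and 3. By library, the short-ended transcripts were counted 19, 16, 11 and 19 times with shPTBP1 and 4, 4, 1 and 1 times with shSCR, so the difference in IQSEC2 counts was carried by them. The counts are assignments to annotated transcripts, and the reads were not inspected. Whether each read reached the terminal exon cannot be told from the counts. The canonical transcript IQSEC2-218, with 4464 coding bases, was at 0, as were all 5 transcripts annotated from the upstream start, which lies 39766 bases before the start of IQSEC2-209. Counts of 10 with shSCR and 68 with shPTBP1 are too few to compare the share of the long form between the groups.

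**Figure D1:**
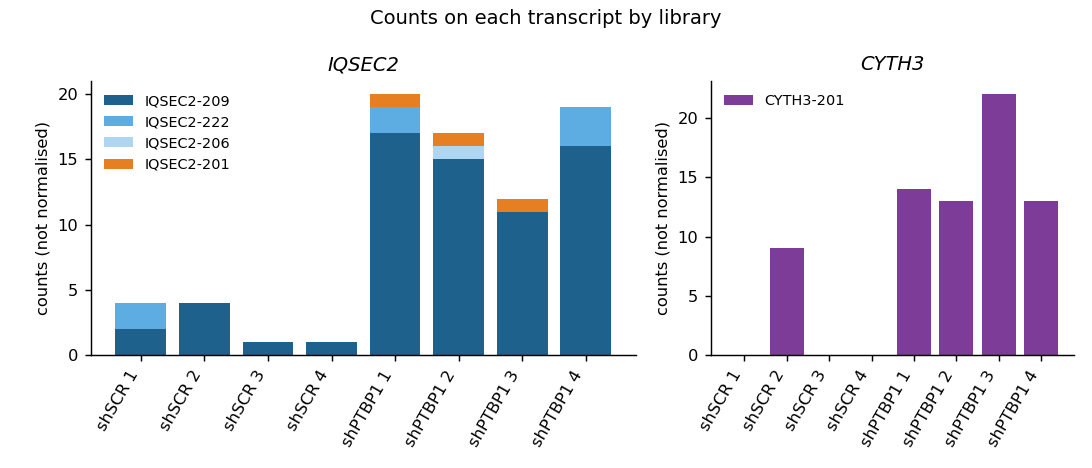
Counts of each IQSEC2 transcript (left, stacked) and of CYTH3-201 (right) in each of the 8 libraries, without normalisation. The bars of IQSEC2 reach 12 to 20 with shPTBP1 and 1 to 4 with shSCR and are mostly IQSEC2-209, and CYTH3-201 is at 0 in 3 of the 4 shSCR libraries.

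To place the Sec7 domain, the protein encoded by CYTH3-201 was aligned locally with those of the other members. Residues 66 to 253 of its 399 residues aligned with residues 548 to 741 of IQSEC2-201, with 39.9% identical positions. This stretch covers the Sec7 domain, and in IQSEC2-201 its residues are encoded by exons 5 to 9 of 14. IQSEC2-209 shares 2 exons with IQSEC2-201 and then ends in its own exon, chrX:53266328-53267064, 737 bases long, of which 97 are coding. The next exon of IQSEC2-201 begins 11003 bases further on. The same or nearly the same stretch of CYTH3 aligned with IQSEC1-205 (43.6% identical, exons 3 to 7 of 13), ARFGEF1-201 (47.1%), ARFGEF2-201 (51.3%) and GBF1-230 (44.1%). Among the cytohesins the alignment ran over nearly the whole protein, with 85.8% identical positions for CYTH1-214, 81.7% for CYTH2-203 and 73.1% for CYTH4-201.

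The coding bases of this terminal exon are shown because they replace everything downstream, and they run from the splice acceptor into a stop codon, in capitals (chrX:53266965-53267064, minus strand, hg38).
IQSEC2-209 exon 3, coding: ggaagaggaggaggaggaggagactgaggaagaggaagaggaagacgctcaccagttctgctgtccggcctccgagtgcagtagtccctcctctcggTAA

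The acceptors of IQSEC2 are shown because PTBP1 is known to bind pyrimidine-rich RNA before exons. Each run is the 100 intron bases that end at the acceptor, read on the minus strand of hg38. Capitals mark the motifs CTCTCT and TCTT, as found on that strand with overlapping matches counted.
IQSEC2-209 exon 3 (terminal), chrX:53267065-53267164: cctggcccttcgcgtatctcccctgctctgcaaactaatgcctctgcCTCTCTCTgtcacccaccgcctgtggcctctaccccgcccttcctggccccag
IQSEC2-201 exon 3, chrX:53256062-53256161: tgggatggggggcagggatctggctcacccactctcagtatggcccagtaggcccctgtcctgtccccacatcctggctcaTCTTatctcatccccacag
exon 2 of both, chrX:53279660-53279759: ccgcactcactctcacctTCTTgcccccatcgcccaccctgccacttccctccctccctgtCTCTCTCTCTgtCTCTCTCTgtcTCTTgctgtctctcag
The window before the terminal exon was 73% pyrimidine and held CTCTCT in 2 overlapping matches and no TCTT. The window before exon 3 of IQSEC2-201 was 59% pyrimidine, with 1 TCTT and no CTCTCT. The window before the shared exon 2 was 83% pyrimidine, with 5 CTCTCT and 2 TCTT. Over 209823 such windows of coding transcripts the median was 55% pyrimidine, 9.19% held CTCTCT and 60.9% held TCTT. Of these windows, 98.3% had fewer pyrimidines than that of the terminal exon. For exon 3 of IQSEC2-201 it was 67.3%, and for the shared exon 2 it was 99.8%. A match of letters is not a binding site, and binding was not measured in these libraries.

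CYTH3 (GRP1, ENSG00000008256, chr7:6161779-6272644, minus strand), a cytohesin known for binding the phosphoinositide PIP3, was counted 14, 13, 22 and 13 times in the shPTBP1 libraries. In the shSCR libraries it was counted 0, 9, 0 and 0 times. The lowest shPTBP1 library, at 8.32 CPM, was above the highest shSCR library, at 5.73 CPM. The level was 10.1 ± 2.95 CPM with shPTBP1 and 1.43 ± 2.87 CPM with shSCR, a log2 fold change of 2.74 (SE 0.74), and the ratio of summed counts was 6.98 (95% interval 3.45–15.97, counting error only). The shSCR level came from replicate 2 alone. The other shSCR libraries held no count. With that replicate left out and 3 counts over the 3 libraries, 0.640 CPM, set as a limit, the shPTBP1 level was 15.7-fold that limit. Libraries at 0 beside higher counts of the same group also occurred in other genes, as in AGFG1 with shSCR (18, 0, 10 and 14 counts). A count of 0 thus need not mean a level under the limit, and 15.7 is not a bound on the fold change. The shSCR replicate 2 was left out after its value was seen, and the error of the shPTBP1 counts is not included. The ratio over all libraries remains 6.98.

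All 71 counts lay on CYTH3-201, the canonical transcript with 13 exons and 1197 coding bases. CYTH3 and IQSEC2 thus reached similar levels with shPTBP1. The CYTH3 counts were given to a transcript annotated with the Sec7 exons, and the IQSEC2 counts mostly to transcripts without them. Whether the reads of CYTH3 covered its Sec7 exons cannot be told from the counts. Divided by the length of the transcripts counted, IQSEC2 stood at 10.4 ± 2.04 CPM per kb with shPTBP1 and CYTH3 at 2.25 ± 0.659. A long read gives 1 count whatever the length of its transcript, so the per-kb values do not compare the abundance of the 2 genes.

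**Figure D2:**
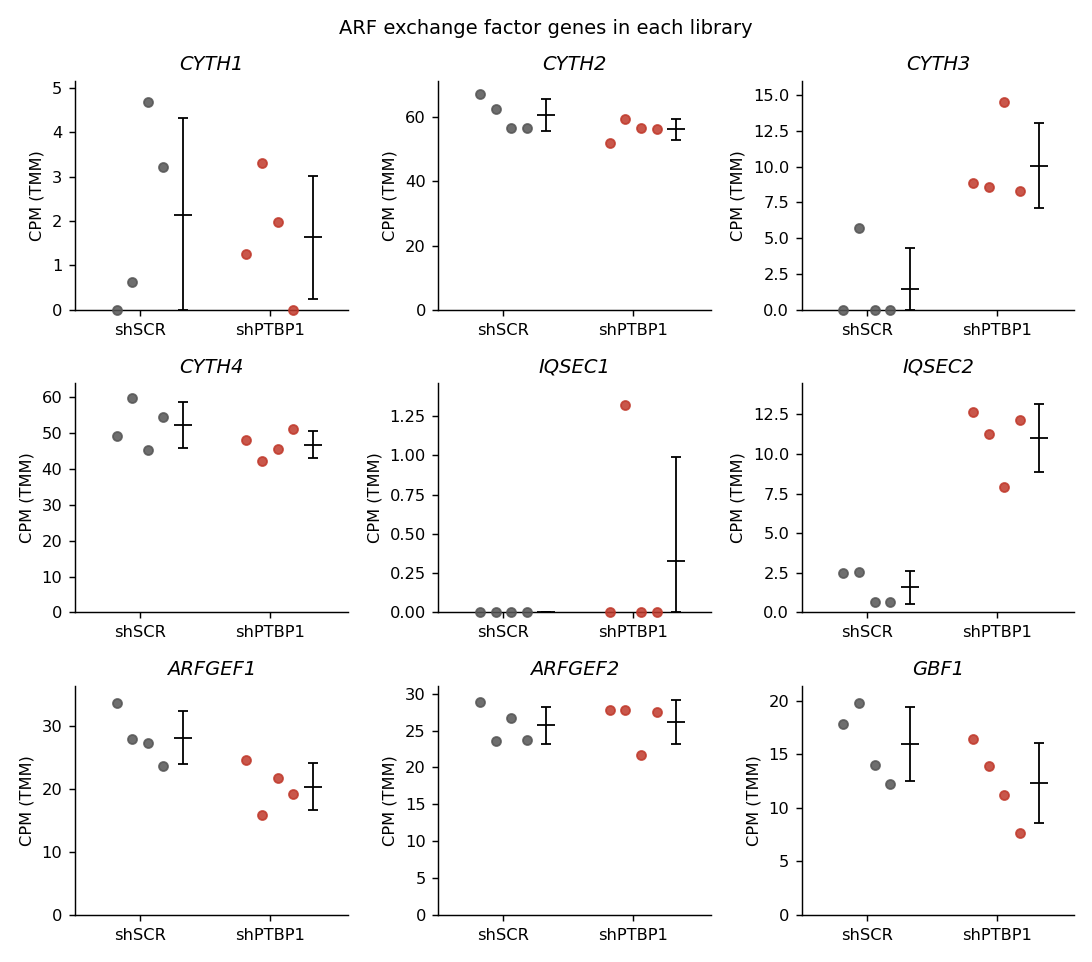
Level in CPM (TMM) of each of the 9 genes, each on its own axis from 0, with a point for each library and the mean ± SD beside it (bars cut at 0). The groups are apart in CYTH3 and IQSEC2, by which the set was chosen, and overlap in the other 7 genes.

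The 250 bases before the starts of the transcripts that held the counts are shown for the 2 genes that chose the set (RefSeq, GRCh38.p14, minus strand). They were searched on both strands for the RUNX motifs TGTGGT and TGCGGT, since the study concerns PTBP1 and the transcription factor RUNX1, and for the E-box CACGTG, added after the first window was seen. Matches are in capitals.
CYTH3, chr7:6272625-6272874: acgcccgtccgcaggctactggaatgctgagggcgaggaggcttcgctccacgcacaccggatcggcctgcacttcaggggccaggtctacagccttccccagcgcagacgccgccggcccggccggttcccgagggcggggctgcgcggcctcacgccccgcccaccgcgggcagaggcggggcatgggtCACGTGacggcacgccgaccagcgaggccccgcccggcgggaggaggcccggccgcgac
IQSEC2 (downstream start), chrX:53281585-53281834: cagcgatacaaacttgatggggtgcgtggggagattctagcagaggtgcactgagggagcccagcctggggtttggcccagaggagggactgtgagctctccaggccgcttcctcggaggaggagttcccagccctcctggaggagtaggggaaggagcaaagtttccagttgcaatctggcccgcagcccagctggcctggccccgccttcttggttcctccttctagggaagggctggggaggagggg
Neither window held TGTGGT or TGCGGT, which 10.99% and 5.82% of 34943 promoter windows of this length hold. The CYTH3 window held CACGTG 1 time, as 6.32% of the windows do. G and C made up 76.8% of the CYTH3 window and 63.2% of the IQSEC2 window, against a median of 58%.

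CYTH2 and CYTH4 were the most abundant members, and their libraries overlapped between the groups. CYTH2 (ARNO, ENSG00000105443, chr19:48469208-48482314), which loads ARF6 and ARF1 at the plasma membrane and endosomes, was counted 82, 90, 86 and 88 times with shPTBP1 and 109, 98, 85 and 88 times with shSCR. Its level was 56.1 ± 3.13 CPM with shPTBP1 and 60.6 ± 5.05 CPM with shSCR, a log2 difference of -0.11 (SE 0.10, adjusted p = 0.605 in edgeR). CYTH4 (ENSG00000100055, chr22:37282027-37315341), the cytohesin of blood cells, was counted 76, 64, 69 and 80 times with shPTBP1 and 80, 94, 68 and 85 times with shSCR. Its level was 46.8 ± 3.81 CPM with shPTBP1 and 52.2 ± 6.33 CPM with shSCR (log2 difference -0.16, SE 0.12, adjusted p = 0.518 in edgeR). A change within 2 SE would lie between -0.32 and 0.09 for CYTH2 and between -0.40 and 0.08 for CYTH4 on the log2 scale.

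CYTH1 (ENSG00000108669, chr17:78674048-78782297, minus strand), known to bind the integrin β2 tail, was close to the limit of detection. It was counted 2, 5, 3 and 0 times with shPTBP1 and 0, 1, 7 and 5 times with shSCR, a ratio of 0.779 with a counting interval of 0.306–1.92. Its level was 1.64 ± 1.38 CPM with shPTBP1 and 2.13 ± 2.19 CPM with shSCR. Summed over the 4 cytohesins, the level was 114.5 ± 3.56 CPM with shPTBP1 and 116.4 ± 9.10 CPM with shSCR, so the counts gained by CYTH3 were small beside those of CYTH2 and CYTH4.

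CYTH2 was read almost entirely as transcripts with a short end. CYTH2-202, of 1546 bases, held 648 of its 726 counts, and CYTH2-210, which retains the intron after exon 8, held 62. GENCODE labels CYTH2-202 as a target of nonsense-mediated decay, the pathway that removes RNAs with an early stop codon, with 876 coding bases against 1200 in CYTH2-203. CYTH2-203, whose end lies 2948 bases further downstream, held 14 counts, and the canonical CYTH2-204 was at 0. Transcripts with the short end took 98.3 ± 2.18% of the CYTH2 counts with shPTBP1 and 97.4 ± 1.09% with shSCR. CYTH2-202 alone took 90.3 ± 5.73% and 88.7 ± 3.65%, a difference of 1.58 percentage points that is smaller than either SD (exact permutation test, two-sided, p = 0.686, adjusted over 5 transcripts p = 0.829). CYTH2-210 took 8.01 ± 5.42% and 8.76 ± 2.58%.

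**Figure D3:**
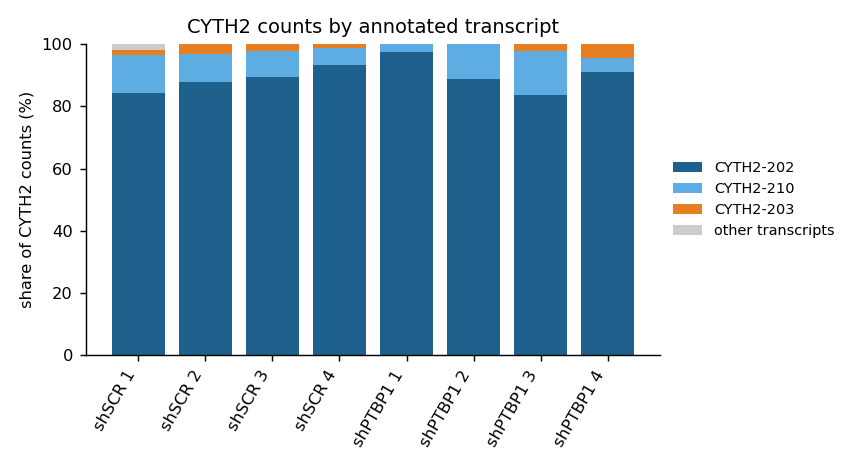
Share of the CYTH2 counts in percent on CYTH2-202, CYTH2-210, CYTH2-203 and other transcripts in each of the 8 libraries. CYTH2-202 is the main bar everywhere, at means of 90.3% with shPTBP1 and 88.7% with shSCR.

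The annotated transcripts of CYTH1 and CYTH2 differ at a joint in the pleckstrin homology domain, where cytohesin forms with an added glycine are known to differ in phosphoinositide preference. The spliced joints are shown with 24 bases on each side, and capitals mark bases that some transcripts of the gene lack.
CYTH1-201 (exons 9 to 11): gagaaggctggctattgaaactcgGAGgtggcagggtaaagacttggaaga
CYTH1-214 (exons 9 and 10): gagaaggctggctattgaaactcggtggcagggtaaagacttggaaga
CYTH2-203 (exons 8 and 9): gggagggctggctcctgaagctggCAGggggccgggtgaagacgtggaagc
CYTH2-204 (exons 8 and 9): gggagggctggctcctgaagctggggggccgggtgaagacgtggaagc
CYTH2-202 (exons 8 and 9): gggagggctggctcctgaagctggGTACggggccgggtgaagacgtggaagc
CYTH3-201 (exons 9 and 10): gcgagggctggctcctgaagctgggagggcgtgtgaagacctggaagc
CYTH4-201 (exons 9 and 10): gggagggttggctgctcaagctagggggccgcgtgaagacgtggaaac
The 3 added bases come from an exon of their own in CYTH1-201 (chr17:78696007-78696009) and from a longer exon 9 in CYTH2-203, and their letters differ between these transcripts. Read in frame, they add a glycine in CYTH1-201 but an alanine in CYTH2-203, which is thus not the form with the added glycine. CYTH2-202 lacks the 3 bases of CYTH2-203 and instead extends exon 8 by 4 bases. The 3 CYTH1 transcripts with the 3-base exon had no count, which allows up to 13.0% of the 23 CYTH1 counts. CYTH1-201 and CYTH1-214 have nearly the same ends and differ mainly by this exon. Whether the reads and their mapping could place so short an exon was not tested. The 13.0% therefore covers counts given to these transcripts, and not the use of the exon in CYTH1. The CYTH1 counts fell on CYTH1-214 (13), CYTH1-210 (8) and CYTH1-205 (2). CYTH2-213, which holds a 3-base exon at chr19:48477717-48477719 and whose joint is not shown, also had none, which allows up to 0.413% of the 726 CYTH2 counts. This limit covers that transcript, which ends at chr19:48480653, and not the use of its exon. CYTH2-202, CYTH2-203 and CYTH2-213 differ in their ends, so a count given to any of them does not show which joint the read carried. CYTH3-201 and CYTH4-201 have the form without the added bases, and no transcript annotated for these genes holds a 3-base exon.

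CYTH4-201 held 276 of 289 counts with shPTBP1 and 320 of 327 with shSCR. As a share this was 95.6 ± 2.24% against 97.9 ± 0.931% (exact permutation test, two-sided, p = 0.114, adjusted p = 0.286). The remaining CYTH4 counts lay on transcripts annotated as retaining an intron.

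IQSEC1 (BRAG2, ENSG00000144711, chr3:12897043-13283281, minus strand), which is widely expressed in other tissues, had 2 counts, both in shPTBP1 replicate 2 and both on IQSEC1-205. It had none in the 4 shSCR libraries, where 3 counts over the group would be 0.480 CPM, so no fold change was given.

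The large exchange factors of the Golgi were not called, and 2 of the 3 had lower means with shPTBP1. ARFGEF1 (ENSG00000066777, chr8:67173511-67343781, minus strand) was counted 39, 24, 33 and 30 times with shPTBP1 and 55, 44, 41 and 37 times with shSCR. The highest shPTBP1 library, 24.7 CPM, lay above the lowest shSCR library, 23.7 CPM. Its level was 20.4 ± 3.75 CPM with shPTBP1 and 28.2 ± 4.16 CPM with shSCR, a log2 fold change of -0.47 (SE 0.18), which did not pass the test (edgeR adjusted p = 0.172). CSPP1, on the opposite strand and overlapping it, held 122 counts, and strand was not stated for the counting.

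ARFGEF2 (ENSG00000124198, chr20:48921711-49036693) was counted 44, 42, 33 and 43 times with shPTBP1 and 47, 37, 40 and 37 times with shSCR. Its level was 26.2 ± 2.99 CPM with shPTBP1 and 25.7 ± 2.55 CPM with shSCR (log2 difference 0.03, SE 0.16, adjusted p = 0.954 in edgeR). GBF1 (ENSG00000107862, chr10:102245371-102382899) was counted 26, 21, 17 and 12 times with shPTBP1 and 29, 31, 21 and 19 times with shSCR. Its level was 12.3 ± 3.75 CPM with shPTBP1 and 15.9 ± 3.45 CPM with shSCR (log2 difference -0.37, SE 0.26, adjusted p = 0.468 in edgeR). Both genes overlapped between the groups, and the interval of 2 SE ran from -0.28 to 0.34 for ARFGEF2, from -0.88 to 0.14 for GBF1 and from -0.83 to -0.11 for ARFGEF1. Of the 5 members tested beside CYTH3 and IQSEC2, 0 were called by edgeR, 0 by limma-voom and 0 by DESeq2, which gave no adjusted p for 1 of them. At an unadjusted p under 0.05, 1 of the 5 passed, ARFGEF1, where 19.2% of all genes tested did, so this count is near the background.

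Most counts of the large factors were given to long transcripts of many exons, although a count does not show how much of the transcript its read covered. ARFGEF1-201, of 7320 bases and 39 exons, held 288 of 303 counts, and ARFGEF2-201, of 9031 bases and 39 exons, held 320 of 323. The main GBF1 transcript was GBF1-230 with 137 of 176 counts, and the canonical GBF1-201 had 3. GBF1-223 took 6.67 ± 1.64% of the GBF1 counts with shPTBP1 and 12.9 ± 7.25% with shSCR and was not tested. Its annotated coding length of 5577 bases is close to the 5568 of GBF1-230. GBF1-230 took 82.4 ± 5.84% of the GBF1 counts with shPTBP1 and 74.2 ± 4.90% with shSCR (exact permutation test, two-sided, p = 0.0857, adjusted p = 0.286), and ARFGEF1-201 took 94.5 ± 6.44% and 95.9 ± 4.78% (p = 0.657 in the same exact test). With 4 libraries against 4 the smallest p this test can give is 0.0286. In each member at most 1 transcript passed the filter on low counts, so none of the members entered the isoform test across genes.

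In CPM, the order of levels with shSCR was CYTH2 (60.6), CYTH4 (52.2), ARFGEF1 (28.2), ARFGEF2 (25.7) and GBF1 (15.9). CYTH1 (2.13), IQSEC2 (1.58), CYTH3 (1.43) and IQSEC1 (0) followed. Division by length, which counts of long reads do not call for, lowers the long transcripts. Per kb, the order was CYTH2 (32.5 ± 2.70 CPM per kb), CYTH4 (17.2 ± 2.09), ARFGEF1 (3.94 ± 0.580), ARFGEF2 (2.85 ± 0.283), GBF1 (2.50 ± 0.541), IQSEC2 (1.5 ± 1.02), CYTH1 (0.622 ± 0.639), CYTH3 (0.320 ± 0.639) and IQSEC1 (0). From ARFGEF2 downwards each neighbour in the per-kb order lay within the summed SDs of the next. Per kb with shPTBP1, IQSEC2 followed directly after CYTH2 (30.02 ± 1.68) and CYTH4 (15.4 ± 1.25), and CYTH3 (2.25 ± 0.659) lay within the summed SDs of ARFGEF2 (2.91 ± 0.332), ARFGEF1 (2.84 ± 0.522) and GBF1 (1.93 ± 0.588). This place of IQSEC2 rests on the division by the length of its short transcripts, since in CPM with shPTBP1 it lay below ARFGEF2, ARFGEF1 and GBF1. Summed over all 9 genes, the level was 181–192 CPM with shPTBP1 and 175–202 CPM with shSCR.

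Of 85 other genes of the ARF pathway, 45 were tested. With shPTBP1, 3 were called lower by edgeR (3.19% of all genes were) and 0 higher, also 0 by DESeq2 and by limma-voom. At an unadjusted p under 0.05, 9 of the 45 passed, against 19.2% of all genes tested, and of these 8 were lower (10.1% of all genes) and 1 higher (9.1%). The median log2 fold change of the 45 was -0.10, against -0.00014 over all genes tested, and 33 of them were below 0. By role, 1 of 4 tested ARF GTPases, 1 of 8 GTPase-activating proteins, 0 of 23 effectors and coat subunits, 1 of 9 recruiters and partners and 0 of 1 other exchange factors, FBXO8, were called.

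ARF1, the substrate of the Golgi exchange factors, was by far the most abundant ARF. It stood at 1164.8, 966.5, 911.8 and 905.3 CPM in the shPTBP1 libraries and 1246.2, 1333.3, 1332.4 and 1232.6 CPM in the shSCR libraries, and the groups did not overlap. It was lower with shPTBP1 by a log2 difference of -0.38 (SE 0.08, adjusted p = 0.0129 in edgeR). SMAP1, a GTPase-activating protein for ARF6, stood at 15.2, 17.2, 22.4 and 13.4 CPM with shPTBP1 and 28.9, 31.2, 38.0 and 34.0 CPM with shSCR, a log2 difference of -0.95 (SE 0.18, adjusted p = 0.0106 in edgeR). ITGB2, the integrin β2 chain that cytohesin-1 binds, averaged 98.5 ± 25.1 CPM with shPTBP1 and 163.3 ± 30.1 CPM with shSCR, a log2 difference of -0.73 (SE 0.16, adjusted p = 0.0193 in edgeR). Its call was kept in 3 of the 8 fits that left out 1 library, in which the highest adjusted p was 0.0758, and that of ARF1 in 7 of 8 (highest 0.0570), whereas SMAP1 was called in all 8.

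The other ARF GTPases were not called. ARF4 averaged 225.7 ± 1.42 CPM with shPTBP1 and 206.4 ± 13.6 CPM with shSCR (log2 fold change 0.13, edgeR adjusted p = 0.319), and ARF5 186.0 ± 17.3 and 207.1 ± 22.6 CPM (-0.15, adjusted p = 0.392). ARF3 averaged 27.2 ± 3.14 and 22.9 ± 3.51 CPM (log2 fold change 0.24, edgeR adjusted p = 0.469). ARF6, the GTPase that cytohesins and IQSEC proteins act on at the plasma membrane, had 16 counts in the 8 libraries and was not tested.

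Among all genes tested, those whose log2 CPM followed CYTH3 most closely over the 8 libraries were TSEN15 (Pearson r = 0.980), MRPL24 (0.966), ELOVL5 (0.951), EMC3 (0.9497) and CCDC26 (0.944). For IQSEC2 they were C4orf46 (0.981), MATR3 (0.961), ANXA7 (0.959), RBM39 (0.957) and OGFRL1 (0.956). These are descriptions over libraries that share the contrast between the groups, and CYTH3 and IQSEC2 did not appear in each other's list.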

How the data were processed

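RNA from 4 shPTBP1 and 4 shSCR libraries of MOLM-13 cells was examined. Nanopore cDNA reads were mapped by the authors on hg38 (minimap2), those of low mapping quality removed, and transcripts counted (StringTie). The deposited values are whole-number counts per transcript without normalisation. Tool versions and the annotation are not given in the sources used here. A second deposited table, of the same counts scaled to the library totals, was not used.

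Groups and replicate numbers came from the labels. Transcripts were assigned to genes by Ensembl identifier, without its version, in GENCODE 44 on GRCh38, which held 252562 of 254070 transcripts. Gene sums, scaled by TMM, went into glmQLFit and glmQLFTest of edgeR 4.0.16 (R 4.3.3), with group as the only term, filterByExpr with a minimum count of 10, and Benjamini-Hochberg adjustment over the 7597 genes kept. Isoforms were tested with diffSpliceDGE (adjusted p under 0.05 and a change of at least 10 percentage points of the gene's counts). Shares of single member transcripts were compared by exact permutation tests with scipy 1.17.1, a test added after the data were seen. Alternatives were DESeq2 1.42.0, limma 3.58.1, other filters and size factors, a replicate block and leaving out each library. Translated coding sequences were aligned with Biopython 1.88 (BLOSUM62). Fits were tested on simulated counts.

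Members and lists were chosen with earlier results of these data known. The genes named are the members, PTBP1 and PTBP2, the pathway genes called (at most 5 a direction), the ARF GTPases, transcripts with at least 10% of a member's counts, and the 5 genes most correlated with CYTH3 and with IQSEC2. Other transcripts, FBXO8 and AGFG1 were named after their values were seen. Promoter windows were found for 7 of the 9 members. Counting error alone is covered by the intervals and by the limit set for a count of 0 (3 counts), since amplified cDNA molecules are not independent, and at these depths a gene with few counts has a wide interval.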

Additional observations from a re-analysis of the deposited data

Results flagged for a closer look

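Of 42 groups of 4 libraries tested, 4 held a library far from the rest, and chance flags about 1 in 20 groups of values without ties. That rate does not hold for CYTH3 with shSCR and IQSEC1 with shPTBP1. There the other libraries are all at 0, and any count gives the largest gap possible. CYTH3 stood at 14.5 CPM in shPTBP1 replicate 3, where the other shPTBP1 libraries were at 8.32 to 8.86 CPM. CYTH3 stood at 5.73 CPM in shSCR replicate 2 and at 0 in the other shSCR libraries. IQSEC1 stood at 1.32 CPM in shPTBP1 replicate 2, from 2 counts, and at 0 in the other shPTBP1 libraries. ARFGEF2 stood at 21.7 CPM in shPTBP1 replicate 3, where the others were at 27.5 to 27.8 CPM.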

How the results depend on the processing

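The labels number the replicates 1 to 4 in both groups, but the deviations of same-numbered libraries from their group means correlated at -0.0328 to 0.00889. No pairing by number was seen. Counting noise in genes with few counts also draws such a correlation towards 0, so this check cannot exclude a pairing. With the replicate block, 186 genes were called lower and 137 higher (242 and 179 without it), 50 isoforms were called (61 without it), and 3 pathway genes were called lower and 0 higher, as without it. Leaving out 1 library gave 107 to 190 genes lower, 77 to 168 higher, 39 to 55 isoforms, 1 to 3 pathway genes lower and 0 higher, with 1 pathway gene, SMAP1, left without shPTBP1 replicate 3. Isoforms numbered 154 with limma diffSplice and 28 with a minimum change of 20 points. The fitted log2 fold change of CYTH3 was 3.92 with limma-voom and 6.97 without shSCR replicate 2, against 2.74 in the main fit. Its lowest value was 2.33, without shSCR replicate 1. The log2 fold change of IQSEC2 stayed between 2.48 and 3.03 in every fit run. ARFGEF1 was not called in any fit run, and its lowest adjusted p was 0.121. With a mean of at least 50 counts, CYTH3, IQSEC2, ARFGEF1, ARFGEF2 and GBF1 were not kept and have no value. The share of a member transcript has no value under the other isoform tests, since no member entered them. Low counts limit CYTH1, IQSEC1 and the comparison of IQSEC2 transcripts.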
